A study of Mus musculus with 4 samples.

Results

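Blood vessels are wrapped by mural cells, which are smooth muscle cells around arteries and veins and pericytes around capillaries. The 10 genes described here, chosen by name from the 55228 genes of the count table, are markers of these cells. 6 encode parts of the contractile apparatus (Acta2, Actg2, Myh11, Tagln, Cnn1 and Mylk) and 4 are used to mark pericytes (Rgs5, Cspg4, Pdgfrb and Notch3). All 10 were found in the table, and 9 had enough counts to be tested.

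RNA came from rib cartilage cells of C57BL/6 embryos at stage E17.5. There are 2 wild-type libraries (WT) and 2 Trim28 knockout libraries (Trim28 KO). TRIM28 is a corepressor that helps zinc finger proteins to form heterochromatin. The labels give neither the allele nor any Cre line, and they do not say in which cells Trim28 was lost. They also leave unstated whether each library is a separate embryo. P-values therefore reflect the spread between samples that may be technical repeats.

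Contraction of smooth muscle starts when calcium and calmodulin activate the myosin light chain kinase, the product of Mylk, which phosphorylates the myosin light chain and lets smooth muscle myosin pull on actin filaments. The transcription factor SRF switches on many of these genes through a DNA element called the CArG box, together with the coactivators myocardin and MRTF. Pericytes are recruited to the endothelium by PDGF-B, which acts on the receptor encoded by Pdgfrb. They receive Notch signals from endothelial JAG1 through the receptor encoded by Notch3. Several of these genes are not restricted to vessels: Pdgfrb is widely expressed in fibroblasts, and Cspg4 is known in cartilage.

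Levels are given as CPM, counts brought to a common library size with TMM factors (a trimmed mean over genes). Library totals ran from 18616896 to 20082123 counts, so that 3 counts were worth between 0.151 and 0.159 CPM. Trim28 itself stood at 225 and 186 CPM in WT 1 and WT 2 and at 51.1 and 54.5 CPM in Trim28 KO 1 and Trim28 KO 2, which matched the labels. Genes with an adjusted p under 0.05 in edgeR's quasi-likelihood test, adjusted over all 16639 genes tested, are referred to as called, and "rose" and "fell" are used for these. The cartilage gene Col2a1 lay between 55512 and 79631 CPM in the 4 libraries, far above every gene of the mural set. In such bulk samples fewer mural cells and less RNA per mural cell cannot be told apart.

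2 sets of sequence are shown first because they bear on how the contractile genes were counted. Acta2, smooth muscle alpha-actin, and Actg2, smooth muscle gamma-actin, encode nearly the same protein, so it matters whether their reads can be told apart. The last 60 bases of their coding sequences, from GENCODE M21 transcripts, are given with the 11 bases that differ in capitals.
Acta2: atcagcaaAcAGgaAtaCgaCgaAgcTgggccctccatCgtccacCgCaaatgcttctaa
Actg2: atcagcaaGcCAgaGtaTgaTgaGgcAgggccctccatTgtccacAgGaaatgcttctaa
Across the coding sequences the identity was 84.2%, and the longest identical run was 29 bases. Of 1986 windows of 50 bases in the Acta2 transcript, 7 (0.352%) also occurred in another actin transcript (Actg2, Acta1, Actc1, Actb or Actg1), and none of the Actg2 windows did. Counts of the 2 genes were therefore treated as separate measurements.

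Tagln, which encodes the actin-binding protein transgelin (SM22-alpha), is the opposite case. It lies on the minus strand of chromosome 9 from 45929619 to 45936058 (GRCm38), and 67.9% of its exon bases are shared with exons of the antisense gene Gm48529 or of Pcsk7 on the other strand. All 603 coding bases of its main transcript lie inside Gm48529 exons. The table was counted without strand, and by the featureCounts default a fragment that overlaps exons of several genes is not counted. Exon 3, at chr9:45931300-45931477 (GRCm38, minus strand), is wholly coding and wholly covered by Gm48529, and is shown as an example of sequence whose fragments such a count leaves out.
Tagln exon 3: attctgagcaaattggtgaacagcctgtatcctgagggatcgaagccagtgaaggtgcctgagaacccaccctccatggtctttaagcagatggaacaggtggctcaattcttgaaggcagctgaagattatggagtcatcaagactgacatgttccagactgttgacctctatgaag
Tagln had 10, 6, 1 and 6 counts in WT 1, WT 2, Trim28 KO 1 and Trim28 KO 2, and Gm48529 itself had 7, 4, 2 and 3. These counts were too few for a test, and Tagln was left out of the comparison. It was also left out of the sums, except where a sum over all 6 contractile genes is stated. How many fragments the overlap removed was not tested.

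Of the 9 tested genes, 5 were lower in Trim28 KO (Actg2, Myh11, Mylk, Rgs5 and Notch3), 1 was higher (Cspg4), and 3 did not pass the test (Acta2, Cnn1 and Pdgfrb). Over all tested genes 8.77% were lower and 8.64% higher. The libraries of the genotypes did not overlap in 6 genes on the lower side and in 1 on the higher side, where 29.7% and 28.3% of all tested genes had no overlap in the same directions. Log2 fold changes below 0 were found for 8 of the 9 genes and for 51.9% of all genes. None of the 9 passed a test against a 2-fold change (glmTreat), which 2.34% of all genes passed.

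**Figure D1:**
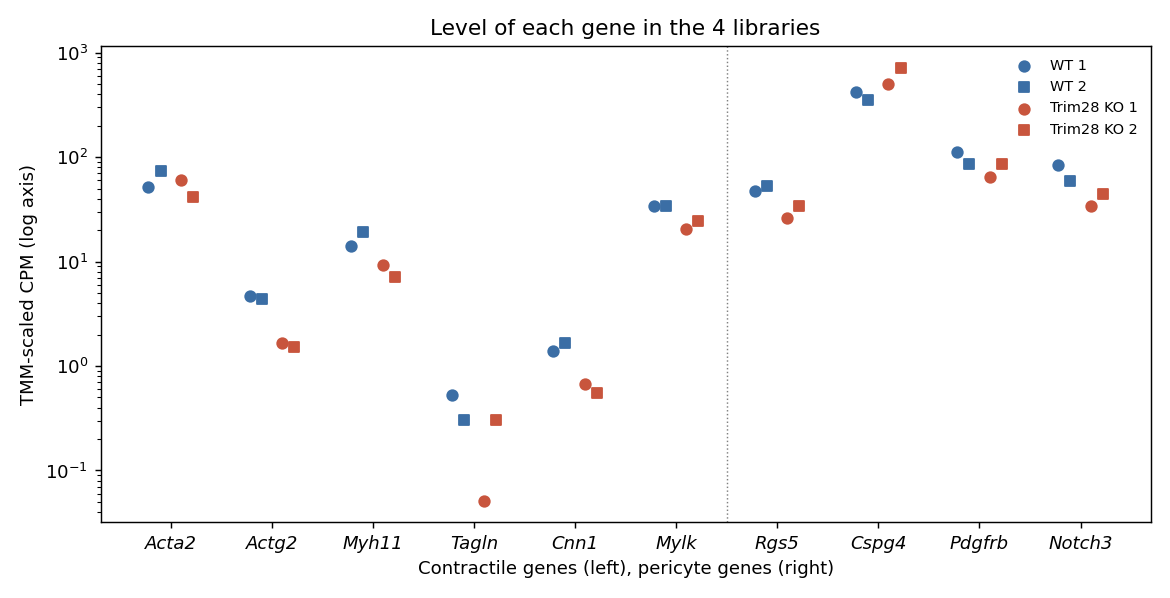
TMM-scaled CPM (log axis) of the 10 genes in each library, WT in blue and Trim28 KO in red. The red points of Actg2, Myh11, Cnn1, Mylk, Rgs5 and Notch3 lie below the blue ones, those of Cspg4 lie above, and those of Acta2 and Pdgfrb overlap them. Tagln is shown at the level its 1 to 10 counts give and was not tested.

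Of the 2 actins of smooth muscle, Actg2 fell and Acta2 did not pass the test, and the difference between their fold changes was not tested. Actg2, on chromosome 6 from 83512905 to 83536265 (minus strand) and best known from the gut and other visceral smooth muscle, stood at 4.67 and 4.39 CPM in WT, compared with 1.65 and 1.51 CPM in Trim28 KO. Both Trim28 KO libraries lay far below both WT libraries, and the replicates were close to each other. The gene fell 2.87-fold (-1.52 ± 0.33 as log2 fold change with its SE, from n = 2 libraries per genotype, adjusted p = 0.00200 by edgeR). This call held in each of the 4 fits that left out a library (adjusted p from 0.00363 to 0.0315).

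Acta2, on chromosome 19 from 34241090 to 34255590 (minus strand) and the major actin of vascular smooth muscle, stood at 51.8 and 73.8 CPM in WT, compared with 60.6 and 41.8 CPM in Trim28 KO. The genotypes overlapped, since Trim28 KO 1 was above WT 1. The log2 fold change was -0.30 ± 0.22 (adjusted p = 0.395 by edgeR), and it was 0.01 without WT 2. The Acta2 to Actg2 ratio of CPM was 11.1 and 16.8 in WT against 36.8 and 27.8 in Trim28 KO. With 2 libraries per genotype an exact permutation test of such a ratio cannot give a two-sided p below 0.333, so it stands as a description.

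Of the 4 genes whose products work with actin, Myh11 and Mylk fell, Cnn1 did not pass the test and Tagln was not tested. Myh11, on chromosome 16 from 14194535 to 14291372 (minus strand), encodes the smooth muscle myosin heavy chain and is the most specific marker of mature smooth muscle in the set. It stood at 14.1 and 19.3 CPM in WT, compared with 9.22 and 7.13 CPM in Trim28 KO, with no overlap. It fell 2.04-fold (-1.03 ± 0.23, adjusted p = 0.00219 by edgeR), a call that was lost without Trim28 KO 2 (adjusted p = 0.0719). The Acta2 to Myh11 ratio was 3.68 and 3.82 in WT against 6.57 and 5.87 in Trim28 KO.

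Mylk, on chromosome 16 from 34745210 to 35002420 (plus strand), produces long and short kinases and the small protein telokin from the same locus, and the gene-level count does not separate them. Of the Mylk exon bases 6.85% are shared with antisense genes. The gene stood at 34.3 CPM in each WT library and at 20.4 and 24.7 CPM in Trim28 KO. It fell 1.52-fold (-0.61 ± 0.19, adjusted p = 0.0292 by edgeR). The call was the least firm of the 6: it was lost in all 4 fits that left out a library (adjusted p from 0.0636 to 0.285), and also with library size alone (0.0585) and with DESeq2 (0.0520).

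Cnn1, on chromosome 9 from 22099216 to 22109630 (plus strand), encodes calponin, an actin-binding protein of differentiated smooth muscle. Its counts were few, 26 and 33 in WT against 13 and 11 in Trim28 KO, or 1.38 and 1.67 against 0.669 and 0.552 CPM. The libraries did not overlap, and the log2 fold change of -1.31 ± 0.46 missed the threshold (adjusted p = 0.0527 by edgeR). At this depth its standard error was larger than that of the other 8 tested genes.

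**Figure D2:**
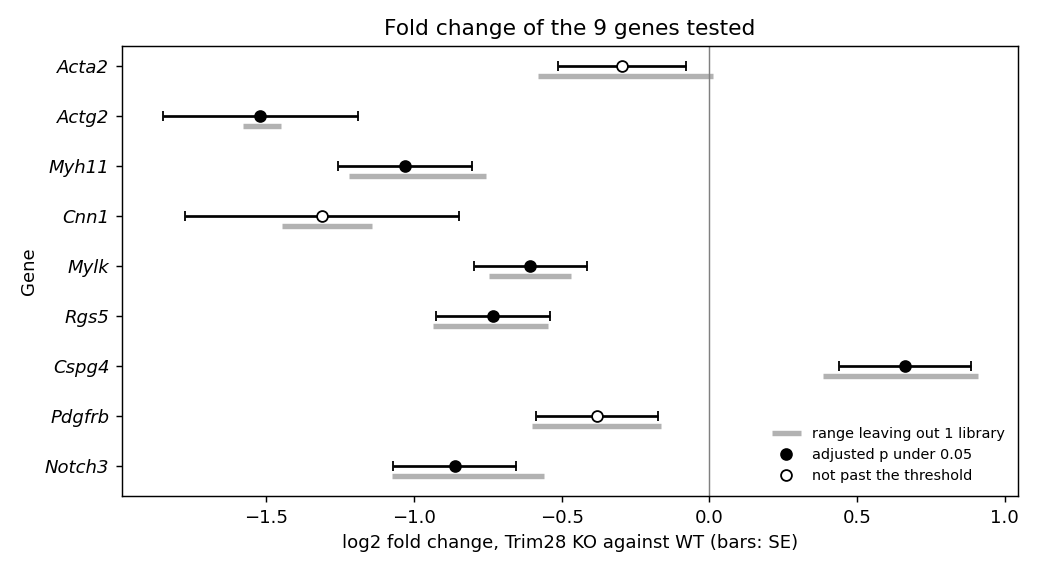
Log2 fold change of Trim28 KO against WT for the 9 tested genes, with the standard error as thin bars and, in grey, the range of values when 1 of the 4 libraries was left out. Filled points have an adjusted p under 0.05. Actg2 has the lowest value at -1.52, and Cspg4 alone lies above 0, at 0.66.

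Among the pericyte genes, 2 fell and 1 rose. Rgs5, on chromosome 1 from 169655501 to 169695813 (plus strand), encodes a brake on G protein signalling and is abundant in pericytes. It stood at 47.5 and 52.3 CPM in WT, compared with 26.0 and 34.02 CPM in Trim28 KO, without overlap. It fell 1.66-fold (-0.73 ± 0.19, adjusted p = 0.00926 by edgeR), and the call was lost without Trim28 KO 1 (adjusted p = 0.205).

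Notch3, on chromosome 17 from 32120820 to 32166852 (minus strand), encodes the Notch receptor that mural cells carry. It stood at 84.2 and 58.7 CPM in WT, compared with 34.2 and 44.4 CPM in Trim28 KO. Even the lower WT library was above both Trim28 KO libraries, though the WT libraries differed widely between themselves. The fall was 1.82-fold (-0.86 ± 0.21, adjusted p = 0.00514 by edgeR), and the call was lost without WT 1 (-0.56, adjusted p = 0.0597) and without Trim28 KO 1 (0.154). Of its exon bases 6.03% are shared with an antisense gene.

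Pdgfrb, on chromosome 18 from 61045150 to 61085061 (plus strand), encodes the receptor through which PDGF-B recruits mural cells. It stood at 110.6 and 85.5 CPM in WT, compared with 64.5 and 86.1 CPM in Trim28 KO. WT 2 and Trim28 KO 2 were nearly equal, so the genotypes overlapped (-0.38 ± 0.21, adjusted p = 0.222 by edgeR).

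Cspg4, on chromosome 9 from 56865033 to 56899870 (plus strand), encodes the NG2 proteoglycan, a cell surface protein used to mark pericytes. It went the other way, from 422 and 348 CPM in WT to 500.2 and 718 CPM in Trim28 KO, without overlap. It rose 1.58-fold (0.66 ± 0.22, adjusted p = 0.0418 by edgeR). The call rested on WT 2 and Trim28 KO 2: without WT 2 the adjusted p was 0.187, and without Trim28 KO 2 it was 0.371 with a log2 fold change of 0.38. The Cspg4 to Rgs5 ratio of CPM was 8.87 and 6.66 in WT against 19.2 and 21.1 in Trim28 KO, and the Cspg4 to Pdgfrb ratio was 3.81 and 4.07 against 7.76 and 8.35. Set against the chondrocyte gene Sox9, Cspg4 stood at 0.912 and 1.01 in WT, compared with 1.37 and 1.65 in Trim28 KO. Sox9 is 1 of 8 chondrocyte markers listed, and no ratio to the others was taken. Acan, another of them, stood at 2735 and 2817 CPM in WT against 3563 and 4585 CPM in Trim28 KO. Acan was thus also higher without overlap, so the separation against Sox9 cannot be taken to hold against Acan. Log2 fold changes lay below 0 in 6 of the 8. The cells that carried the Cspg4 transcript were not determined.

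Because genes differ in length, levels between genes were compared as TMM-scaled CPM per kilobase of exon. In WT the order was Cspg4 at 32.3 ± 4.4 (SD, n = 2), Acta2 at 28.6 ± 7.1, Pdgfrb at 17.9 ± 3.2, Rgs5 at 11.0 ± 0.7, Notch3 at 8.84 ± 2.23, Mylk at 3.05, Actg2 at 2.91 ± 0.13, Myh11 at 2.20 ± 0.49 and Cnn1 at 0.557 ± 0.074. Cspg4 and Acta2 overlapped between libraries, and Rgs5 and Notch3 differed by less than the SD of Notch3. In Trim28 KO Cspg4 (51.1 ± 12.9) stood apart from Acta2 (23.3 ± 6.0), and Pdgfrb (13.7 ± 2.8), Rgs5 (6.60 ± 1.25), Notch3 (4.86 ± 0.88) and Mylk (2.001 ± 0.270) followed in the same order. Myh11 (1.08 ± 0.19) and Actg2 (1.01 ± 0.06) were not separated, and Cnn1 was lowest at 0.223 ± 0.030.

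Acta2 and Cspg4 dominate sums over the genes, so sums are given with and without them. The 5 tested contractile genes together made up 106 and 133 CPM in WT against 92.5 and 75.7 CPM in Trim28 KO. Without Acta2 the remaining 4 summed to 54.4 and 59.6 against 31.9 and 33.9 CPM. Each of these 4 was already lower without overlap, so their sum had to be as well. The 4 pericyte genes summed to 664 and 544 CPM in WT against 625 and 883 in Trim28 KO, which overlapped. Without Cspg4 the other 3 summed to 242 and 197 against 125 and 164 CPM, with no overlap. The direction of the pericyte sum thus turned on Cspg4 alone.

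Replicates of a genotype differed in a pattern that split part of the set. WT 2 was above WT 1 in Acta2 (by 0.51 on the log2 scale), Myh11 (0.46) and Cnn1 (0.27), and below it in Notch3 (-0.52), Pdgfrb (-0.37) and Cspg4 (-0.28). In Trim28 KO the library numbered 2 was below the library numbered 1 in Acta2 (-0.53), Myh11 (-0.37) and Cnn1 (-0.28), and above it in Cspg4 (0.52), Pdgfrb (0.42), Rgs5 (0.39) and Notch3 (0.37). Within each genotype Acta2, Myh11 and Cnn1 therefore went one way and Cspg4, Pdgfrb and Notch3 the other. Actg2 (-0.09 in WT and -0.13 in Trim28 KO), Mylk (-4.4e-04 and 0.28) and Rgs5 (0.14 and 0.39) did not follow this split. Skeletal muscle genes varied between the same libraries: Acta1, skeletal muscle actin, stood at 110.5 and 202 CPM in WT, compared with 336 and 130.2 CPM in Trim28 KO, and Myh8, the perinatal myosin heavy chain, at 45.6 and 93.9 against 360.5 and 80.3 CPM. The 14 skeletal muscle markers summed to 569 and 694 CPM in WT against 1014 and 389 CPM in Trim28 KO. Of 12 tested Myog rose and Tnnt3 fell, where 8.64% of all tested genes rose and 8.77% fell. Leaving out WT 1, WT 2 or Trim28 KO 2 gave more rises in this list than the full fit, and leaving out Trim28 KO 1 gave fewer. Over all genes the rises in these fits were about as many as in the full fit or fewer. A block that paired WT 1 with Trim28 KO 2 and WT 2 with Trim28 KO 1 was added after the data were seen. It gave 6 rises and 1 fall of 12, beside 1593 rises and 1747 falls over all 16639 tested genes. It joins the libraries with the higher sums of these same markers, and the labels give no such pairing. The calls it added are therefore not separate support. WT 2 and Trim28 KO 1, the libraries of each genotype with the higher sum of these markers, were also those with more Acta2, Myh11 and Cnn1. Not every marker followed the sum in WT. Tnnt3 stood at 395 CPM in WT 1 and 365 in WT 2, Tnni2 at 40.8 and 36.6, and Myod1 at 1.38 and 0.909. The part of skeletal muscle in these values was not tested.

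**Figure D3:**
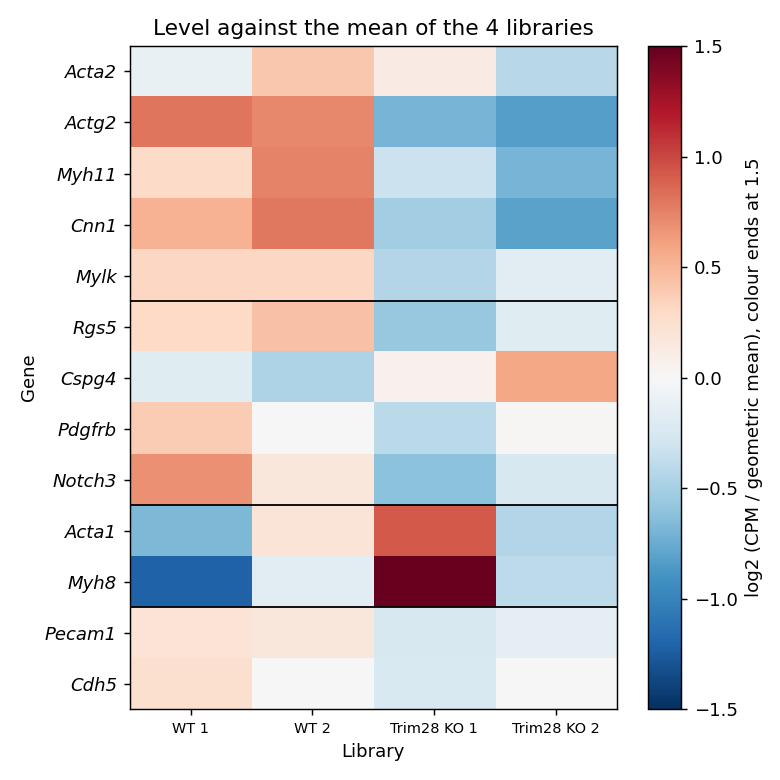
Log2 of each gene's CPM over its geometric mean across the 4 libraries, for 5 contractile genes, the 4 pericyte genes, 2 skeletal muscle genes (Acta1 and Myh8) and 2 endothelial genes (Pecam1 and Cdh5). Within each genotype the library with more Acta1 and Myh8 (WT 2 and Trim28 KO 1) has more Acta2, Myh11 and Cnn1 and less Cspg4, Pdgfrb and Notch3. The colour scale ends at 1.5 in both directions.

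Other genes of the contractile apparatus moved in both directions. Of 30 listed genes 28 were tested, of which 5 rose, 2 fell and 21 missed the threshold. Over all tested genes 8.64% rose and 8.77% fell. The list's median log2 fold change was 0.29, beside -0.02 for all genes. The 2 that fell were Myl9, the regulatory light chain that the Mylk kinase phosphorylates (61.3 and 51.8 CPM in WT, 36.1 and 31.3 in Trim28 KO, adjusted p = 0.00721 by edgeR), and Aoc3, an amine oxidase of the smooth muscle surface (-1.04 ± 0.22). Those that rose included Itga8, an integrin subunit (1.38 ± 0.25), Csrp1, a LIM protein of the actin cytoskeleton (0.85 ± 0.20), Myh10, a nonmuscle myosin (0.85 ± 0.20), and Smtn, smoothelin (0.80 ± 0.20). Of the Smtn exon bases 16.3% overlap other genes. Lmod1, leiomodin, had 1.38 and 0.909 CPM in WT against 2.06 and 1.51 CPM in Trim28 KO (0.64 ± 0.42), and Des, desmin of smooth and skeletal muscle, 29.8 and 43.9 against 77.2 and 35.9 CPM (0.62 ± 0.43). Both were not called, though Des was called higher without WT 2 (0.95) or Trim28 KO 2 (1.07). Many genes of this list, among them Tpm1, Flna, Vcl and Tagln2, are widely expressed outside muscle. Without Trim28 KO 1 Aoc3 (adjusted p = 0.0707) and Csrp1 (0.0591) were no longer called, and without Trim28 KO 2 neither Myl9 (0.115) nor Myh10 (0.0795) was. The list had fewer rises and fewer falls without Trim28 KO 1, and so did all genes. Of the 4 other actin isoforms, the abundant nonmuscle actins Actb (0.29 ± 0.22) and Actg1 (0.37 ± 0.20) and the striated muscle actins Acta1 (0.58 ± 0.68) and Actc1 (0.27 ± 0.60) were not called. Actc1 was called higher in the fit without WT 2 (adjusted p = 8.44e-04 by edgeR).

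Few factors that act on these genes were called. Myocd, the coactivator that defines smooth muscle, was below the limit for testing in both genotypes (0.425 and 0.657 CPM in WT against 0.463 and 0.502 in Trim28 KO). Srf had a log2 fold change of -0.22 ± 0.20 (adjusted p = 0.507 by edgeR). Of 11 tested regulators, Ebf1, a transcription factor of stromal and mural lineages, fell (-0.59 ± 0.19, adjusted p = 0.0389 by edgeR) and 10 did not pass the test. The 1 fall of 11 compares with 8.77% lower over all genes. Log2 fold changes lay below 0 in 7 of the 11. Tbx18 was higher without overlap but not called, at 0.425 and 0.606 CPM in WT against 0.875 and 1.35 CPM in Trim28 KO. Its log2 fold change was 1.10 ± 0.51 (adjusted p = 0.147 by edgeR). The Ebf1 call was lost in each fit that left out a library (adjusted p from 0.0505 to 0.370). Other regulators were called lower in some of these fits: Gata6 (-1.13, adjusted p = 0.00269 by edgeR) and Hic1 (-0.81, adjusted p = 0.00635) without WT 2, and Gata6 without Trim28 KO 2 (-1.35, adjusted p = 0.0464).

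Promoters of 6 of the 10 genes (Acta2, Cnn1, Mylk, Rgs5, Cspg4 and Notch3) were found in RefSeq on GRCm38.p6. Each window runs from 250 bases before to 50 after a start site. That of Mylk, at chr16:34784700-34784999, lies inside the gene span, which begins at 34745210, and so belongs to an internal start site. None of these 6 windows held a strict CArG box (CC and GG around 6 bases of A or T), which 1.63% of all 32851 promoter windows hold. The Acta2 window held 2 CArG boxes with 1 G or C in the core, CCCTATATGG and CCTTGTTTGG, which begin 84 and 34 bases before the start site. At least 1 such loose box occurs in 8.5% of windows, and 2 or more strict or loose boxes in 0.822%. The loose form was searched after the Acta2 sequence was seen. The Acta2 window also held the motif TGGGAA, the core bound by the Notch effector RBPJ, searched on both strands and found in 25.6% of windows. It overlaps the second CArG box, and the other 5 windows held none of these motifs. The window at chr19:34255324-34255623 (GRCm38.p6, minus strand) is printed with the motifs in capitals, as the promoter of the contractile gene with the highest level in the set.
Acta2 promoter: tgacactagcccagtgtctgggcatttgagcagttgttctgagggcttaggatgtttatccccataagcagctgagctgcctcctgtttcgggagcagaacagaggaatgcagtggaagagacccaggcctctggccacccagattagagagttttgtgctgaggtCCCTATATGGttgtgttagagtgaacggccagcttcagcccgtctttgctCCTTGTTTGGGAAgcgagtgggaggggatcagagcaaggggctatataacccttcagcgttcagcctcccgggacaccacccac
A match describes these letters only, and its absence from a window says nothing about binding of the factor.

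Other genes used to mark pericytes moved in both directions. Of 25 tested, 4 rose, 6 fell and 15 missed the threshold, where 8.64% of all tested genes rose and 8.77% fell. The list's median log2 fold change was -0.24. The rises were large in Cox4i2, a lung- and pericyte-type subunit of cytochrome c oxidase (27.1 and 19.9 CPM in WT against 141 and 115.4 in Trim28 KO, 2.45 ± 0.22), and in Rgs4, a relative of Rgs5 (7.38 and 7.63 against 34.1 and 26.8 CPM, 2.02 ± 0.21). Ndufa4l2, a mitochondrial protein induced at low oxygen, rose by 1.30 ± 0.22. Rgs4 thus went the other way from Rgs5, which fell. The remaining rise was that of Mcam, from 81.6 and 91.9 CPM in WT to 127 and 155 CPM in Trim28 KO (0.70 ± 0.20). The falls included Steap4, a metalloreductase (-1.79 ± 0.26), Aspn, a small matrix proteoglycan that cartilage and perichondrium also make (-1.33 ± 0.21), and Heyl (-1.18 ± 0.23). Kcnj8 and Abcc9, the 2 parts of the potassium channel of mural cells, were not called. Kcnj8 stood at 10.3 and 8.28 CPM in WT against 5.82 and 6.62 CPM in Trim28 KO, without overlap, and Abcc9 at 14.9 and 18.9 against 11.9 and 16.8 CPM.

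Log2 fold changes lay below 0 in all 6 PDGF genes and in 10 of 12 Notch genes, and few of them were called. They also lay below 0 in 10 of the 12 endothelial markers and in 51.9% of all tested genes. Calls in these lists stand beside 8.77% lower and 8.64% higher over all genes. Of the 6 PDGF genes, Pdgfra, the receptor of mesenchymal cells (-1.04 ± 0.21, adjusted p = 0.00116 by edgeR), and the ligand Pdgfa (-0.68 ± 0.20, adjusted p = 0.0204) fell and none rose. The Pdgfra call was lost without Trim28 KO 1 (adjusted p = 0.0720). For Pdgfa the call failed in 3 of the fits that left out a library, with -0.41 and an adjusted p of 0.228 in the absence of WT 1, 0.258 in that of Trim28 KO 1 and 0.0605 in that of Trim28 KO 2, and 26.1% of its exon bases overlap other genes. Pdgfb, the ligand that recruits pericytes, stood at 32.0 and 21.5 CPM in WT, compared with 19.4 and 21.5 CPM in Trim28 KO and was not called (-0.39 ± 0.21). It was called lower without WT 2 (-0.62, adjusted p = 0.0469 by edgeR).

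Of 12 Notch ligands, receptors and targets, Heyl, a Notch3 target in mural cells, fell from 13.1 and 12.5 CPM to 5.25 and 6.07 CPM (adjusted p = 6.27e-04 by edgeR), and it was called in each fit that left out a library. The other 11 did not pass the test, so that 1 of 12 fell where 8.77% of all tested genes were lower. Jag1, the ligand of Notch3 on endothelium, had a log2 fold change of -0.40 ± 0.20 (adjusted p = 0.177 by edgeR), and Hey2, a repressor of arterial cells, had under 1.1 CPM in every library (-1.59 ± 0.59, adjusted p = 0.0638). Nrarp, whose exons overlap other genes over 79.4% of their length, is uncertain. The median over the 12 was -0.33.

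**Figure D4:**
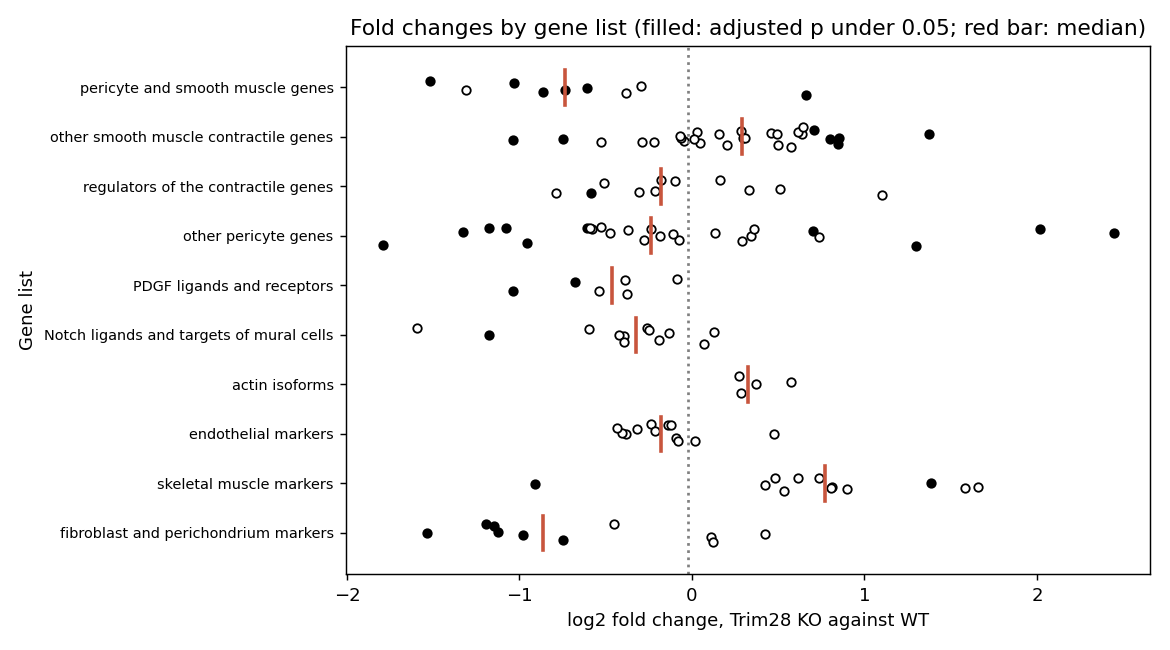
Log2 fold change of Trim28 KO against WT for each tested gene, by list. Filled points have an adjusted p under 0.05, the red bar is the list's median and the dotted line is the median of all genes (-0.02). The median is -0.73 for the 9 tested pericyte and smooth muscle genes, 0.29 for the other contractile genes and -0.24 for the other pericyte genes.

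Markers of the cells next to mural cells are given beside these values. Of 12 endothelial markers none was called by edgeR or by DESeq2. In edgeR 3 had an unadjusted p under 0.05, of which Erg was higher (0.48) and Tek (-0.41) and Robo4 (-0.43) were lower. The 12 markers had a median log2 fold change of -0.18. Their summed level was 720.0 and 612 CPM in WT against 554 and 643 CPM in Trim28 KO, and the genotypes overlapped. Pecam1 stood at 122 and 119 CPM in WT against 89.5 and 95.3 CPM in Trim28 KO (-0.38 ± 0.19), and Cdh5 at 144 and 122 against 105 and 122 CPM (-0.24 ± 0.20). Divided by the summed endothelial level, the 4 pericyte genes stood at 0.922 and 0.890 in WT, compared with 1.13 and 1.37 in Trim28 KO, higher without overlap. The 3 other than Cspg4 stood at 0.337 and 0.321 in WT, compared with 0.225 and 0.256 in Trim28 KO, lower without overlap, so that the direction of this ratio also turned on Cspg4. The 5 tested contractile genes stood at 0.148 and 0.218 in WT, compared with 0.167 and 0.118 in Trim28 KO on the same scale, which overlapped. Without Acta2 the other 4 stood at 0.0756 and 0.0975 against 0.0577 and 0.0527, without overlap. Acta2 was the only gene of the 5 whose libraries overlapped, so leaving it out favoured this separation, which is not separate support.

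Connective tissue and bone markers also differed. The counts below stand beside 8.64% higher and 8.77% lower over all tested genes. Of 10 fibroblast and perichondrium markers, 6 fell and none rose, with a median of -0.86. Without Trim28 KO 1 fewer genes were called lower, both among all genes and among these markers. Their sum, mostly Col1a1, was 52359 and 35087 CPM in WT against 15645 and 19840 CPM in Trim28 KO. Of 7 osteoblast markers 6 fell (summed level of 1087 and 1164 CPM against 236 and 368 CPM). Of 8 macrophage markers 5 rose (117 and 116 against 398 and 241 CPM), and all 6 tested red cell markers fell (255 and 349 against 75.5 and 81.7 CPM). Of 8 chondrocyte markers edgeR called none (1 at an unadjusted p under 0.05, and 1 called by DESeq2). Pdgfrb, Notch3 and Acta2 can be expressed in connective tissue cells as well as in vessels. The part of these cell types in the values of the mural genes was not tested.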

How the data were processed

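The authors deposited raw counts of fragments per gene for 4 libraries of total RNA. Per the file headers, paired-end fragments were counted over exons and grouped by gene name, using featureCounts 1.6.4 and the annotation GENCODE M23 (mm10), with no option for strand, for multi-mapping fragments or for fragments over several genes. The aligner is not given in the sources used here. Positions and exon overlaps came from GENCODE M21 (GRCm38, the assembly of mm10), which held 97.0% of the gene names.

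Groups came from the titles. Genes were kept by edgeR's filterByExpr, scaled by TMM (factors of 0.939 to 1.04) and tested with edgeR 4.0.16 (quasi-likelihood, robust, no covariate, R 4.3.3), with Benjamini-Hochberg adjustment over all genes tested. SE is the size of the log2 fold change divided by the square root of F. Per-kilobase values divide CPM by the deposited exon length. The steps were tested on simulated counts. Floors cover counting error only. Replicates were not 1 library deposited again, since a chi-square over genes gave 30.6 per degree of freedom between the WT libraries and 24.6 between the Trim28 KO libraries.

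The 10 genes, the other lists and the tests were chosen with earlier results of these data known. The genes to name were all 10, Trim28, for each list the 4 tested genes of smallest p, and 15 others such as Srf. Not all of these are described, and Tpm1, Flna, Vcl, Tagln2, Steap4, Nrarp, Myh8, Sox9 and Col2a1 were named after their values were seen. Alternatives were relative log expression (RLE) factors, library size alone, other filters, DESeq2 1.42.0, limma-voom (limma 3.58.1), glmTreat, a replicate block, leaving out each library and, added after the data were seen, a crossed block and sums without Tagln.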

Additional observations from a re-analysis of the deposited data

How the results depend on the processing

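The 6 calls among the 9 tested genes were the same 6 with RLE factors, with no filter, with limma-voom and with the replicate block. They were 5 of the 6 with library size alone and with DESeq2 (Mylk lost) and with at least 5 CPM in 2 libraries (Actg2 not tested). Against a 2-fold change (glmTreat), 0 of the 9, 13 context genes in place of 48 and 389 of all genes in place of 2898 were called. The edgeR fit gave 7 of the 9 genes an unadjusted p under 0.05. The share of all genes at this limit was not taken. Neither this count nor those of the endothelial and chondrocyte markers can therefore be set against it. Leaving out 1 library gave 3 to 4 calls among the 9, 33 to 54 among the context genes, and 1274 to 2694 among all genes. The lowest of these came without Trim28 KO 1, and 1713 were called without Trim28 KO 2. Of the 9, only Actg2 was called in all 4 fits that left out a library. The log2 ratio of summed CPM, Trim28 KO to WT, was -0.51 for the 6 contractile genes, with or without Tagln (-0.65 to -0.31 for the 6 leaving out 1 library) and 0.32 for the 4 pericyte genes (0.05 to 0.55). Library size alone gave 1681 higher and 1247 lower calls among all genes, against 1438 and 1460, and moved the median of all genes from -0.02 to 0.04. Same-numbered libraries had a correlation of deviations of -0.11, so the numbers do not show pairing. The replicate block gave 2921 calls among all genes and 6 among the 9, and a crossed pairing 3340 and 7, the added call being Cnn1. The crossed pairing was set after the data were seen and joins the libraries with more Cnn1, so this call is not separate support. The cause of these differences was not tested, except that leaving out a library leaves fewer samples. Cnn1 had between 11 and 33 counts a library and Tagln between 1 and 10; neither a deeper nor a stranded count was tested.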
